A study of Mus musculus with 2 samples.

Results

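Messenger RNA of 8 tight junction genes was followed in mouse embryonic stem cells (mESCs) depleted of AIMP3. The genes were the claudins *Cldn3*, *Cldn4*, *Cldn6* and *Cldn7*, the other membrane proteins *Ocln* (occludin) and *F11r* (JAM-A), and the cytoplasmic plaque proteins *Tjp1* (ZO-1) and *Cgn* (cingulin). They were listed by name from 37018 genes or named transcripts on the array by a rule that uses no measured value, although earlier results of these data were known when the list was made. Every probe whose accession maps to one of these symbols was taken, which gave 10 probes for the 8 genes. The cells carry loxP-flanked *AIMP3* alleles and Cre-ERT2 (*AIMP3*f/f;cre-ERT2), a Cre recombinase that tamoxifen switches on. AIMP3-depleted cells received 2 μM tamoxifen (4-OHT) for 4 days in medium with LIF, and control cells of the same genotype received ethanol, the solvent. There were 2 AIMP3-depleted replicates, each hybridized to its own array with the label Cy5, and the control RNA was combined into 1 pool, whose Cy3-labelled copy went onto both arrays. The promoter that drives Cre-ERT2 and the number of cell clones behind the arrays are not given in the sources used here. Because every treated culture received 4-OHT and activated Cre as well, AIMP3 loss and the treatment itself cannot be told apart.

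Tight junctions seal the space between neighbouring epithelial cells near their apical side. Claudins polymerize into the strands that form the seal, occludin and JAM-A lie in the same membrane domain, and scaffold proteins such as ZO-1 hold them in place and tie them to the actin cytoskeleton. In the mouse embryo the first epithelium with tight junctions is the trophectoderm, the outer layer of the blastocyst. mESCs come from the inner cell mass that this layer encloses, and they grow as compact colonies held together by E-cadherin.

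None of the 8 tight junction genes changed in AIMP3-depleted mESCs by the measure used here, a mean difference over 1.5-fold with an unadjusted p under 0.05 by limma (0 raised and 0 lowered). Among all 24022 tested genes 6.32% passed this measure, with 5.53% raised and 0.791% lowered. By the brightest probe of each gene, the largest differences among the 8 were a 1.29-fold higher level of *Tjp1* and a 1.30-fold lower level of *Cldn7*. The 95% confidence intervals of all 8 genes lay inside 1.5-fold in either direction. A dimmer probe of *Cldn4* differed by as much, with a log2 ratio of 0.38. At any fold, 5 of the 8 had an unadjusted p under 0.05, against 60.5% of all tested genes. With p-values adjusted over every tested gene by the Benjamini-Hochberg method, 4 of the 8 (50%) were under 0.05 by limma at any fold, against 54.3% of all tested genes, so the share of the 8 was close to this background. This count was 2 with the processed signals, with the authors' table and with no filter on dim probes, and 7 with median centring. Of the 4 genes found with the main processing, *Tjp1*, *Cldn4* and *Cldn6* were higher (3 genes, against 30.6% of all tested genes). *Cldn7* was lower (1 gene, against 23.7%). Counted by probe, 0 of the 10 passed both thresholds, where 5.72% of all tested probes did (4.97% raised and 0.745% lowered), and 3 of the 10 had an adjusted p under 0.05 by limma, against 50.5% of all tested probes. The methods' t-test, run on the same ratios, gave 2 of the 8 genes with an unadjusted p under 0.05 (*Tjp1* and *Cgn*), against 24.5% of all tested genes, and 0 after adjustment. It also gave 0 of the 24022 genes after adjustment.

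Each array held 59305 spots that were not controls, 59.3% to 60.6% of them were well above background in a given channel, and none was saturated (0 spots). The 10 tight junction probes passed the scanner software's test for signal well above background in either channel on each array, with signals between 2.48 and 393 times the local background. *Eef1e1*, the gene that encodes AIMP3, was lower in AIMP3-depleted cells on both arrays, with log2 ratios of -0.90 and -0.90 (adjusted p = 4.76e-05 by limma), or 0.536 times the control level. Dyes were not swapped, so depletion and a gene-specific difference between Cy5 and Cy3 cannot be told apart. A test of ratios to a single pool holds no spread of the control cultures, and since the labels do not say that the replicates were separate cultures, p-values measure the spread between these samples, which may be technical.

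**Figure D1:**
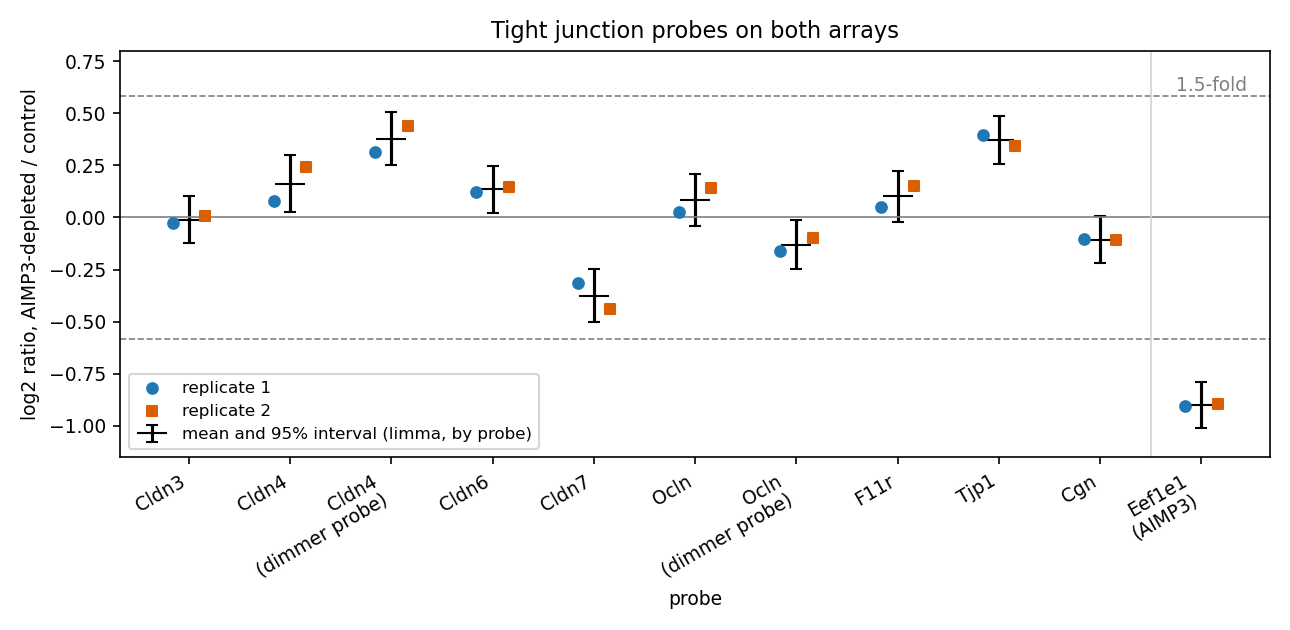
Log2 ratio of AIMP3-depleted over control for the 10 tight junction probes and, at the right, *Eef1e1*. Circles are replicate 1, squares are replicate 2, and black marks are the mean with its 95% confidence interval from limma by probe. Dashed lines mark 1.5-fold. The tight junction probes lie between the dashed lines, while *Eef1e1* lies below them at -0.90.

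Claudins were measured by 5 probes, and their genes did not share a direction. *Cldn7*, a claudin that binds the adhesion molecule EpCAM, had a normalized log2 intensity of 13.65 in the control pool on the first array and 13.59 on the second, and of 13.34 and 13.15 in the AIMP3-depleted replicates. On each array the AIMP3-depleted value lay below the control value. Intensities were not scaled between the arrays, so only channels of the same array are compared. The log2 ratio of *Cldn7* was -0.31 in replicate 1 and -0.44 in replicate 2, with a mean of -0.38 ± 0.087 (SD, n = 2; 95% confidence interval -0.50 to -0.25; adjusted p = 0.00128 by limma). It was thus the 1 gene among the 8 that was lower after adjustment, at 0.771 times the control level.

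*Cldn4*, a claudin that tightens the seal against ions in many epithelia, gave log2 ratios of 0.08 and 0.24 on its brighter probe, with a mean of 0.16 ± 0.11 (SD, n = 2; 95% confidence interval 0.03 to 0.29; adjusted p = 0.0442 by limma). The spread between the replicates was large next to the mean. Within each array the control intensity (10.81 and 10.72) lay below the AIMP3-depleted intensity (10.89 and 10.97). The dimmer probe of *Cldn4* gave larger log2 ratios of 0.32 and 0.44, with a mean of 0.38 ± 0.088 (SD, n = 2; adjusted p over probes = 0.00182 by limma). Both probes were higher in both AIMP3-depleted replicates and both stayed under 1.5-fold, but they differed in size. Probe sequences were not analysed here, so cross-hybridization between claudins was not tested.

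*Cldn6*, a claudin of early embryonic epithelia, gave log2 ratios of 0.12 and 0.15, with a mean of 0.13 ± 0.016 (SD, n = 2; adjusted p = 0.0401 by limma). In the control pool the intensities were 11.70 and 11.54 on the log2 scale, and in AIMP3-depleted cells they were 11.82 and 11.69. The AIMP3-depleted channel was the higher on each array, while values of different arrays were not on a common scale. The call for *Cldn6* and that for *Cldn4* lay at the edge of the threshold, and adjusted over probes in place of genes their p-values by limma were 0.0510 and 0.0528. With the processed signals the adjusted p-values by limma were 0.180 for *Cldn6* and 0.206 for *Cldn4*, and they were 0.0977 and 0.128 with the authors' table. *Cldn3*, which like *Cldn4* tightens the seal, gave log2 ratios of -0.03 and 0.01, with a mean of -0.01 ± 0.023 (SD, n = 2; 95% confidence interval -0.12 to 0.10; adjusted p = 0.847 by limma). It was the 1 gene of the 8 with opposite signs on the arrays.

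Occludin and JAM-A showed small positive mean ratios that did not pass the adjusted threshold. *Ocln* encodes a membrane-spanning protein that stabilizes the claudin strands. Its brighter probe gave log2 ratios of 0.03 and 0.14, with a mean of 0.08 ± 0.079 (SD, n = 2; 95% confidence interval -0.04 to 0.20; adjusted p = 0.193 by limma). Its dimmer probe had the opposite sign, with log2 ratios of -0.16 and -0.10 and a mean of -0.13 ± 0.044 (SD, n = 2; adjusted p over probes = 0.0626 by limma). This probe was the dimmest of all 10, at 2.48 to 2.69 times the local background. No direction can therefore be given for *Ocln*. A difference over 1.5-fold was not seen on either probe, but the offset of 50 added to the signals makes ratios of dim probes smaller.

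*F11r* encodes JAM-A, an adhesion molecule of the immunoglobulin family that recruits polarity proteins to the young junction. The log2 ratios of *F11r* were 0.05 and 0.15, with a mean of 0.10 ± 0.072 (SD, n = 2; 95% confidence interval -0.02 to 0.22; adjusted p = 0.121 by limma). The control intensities were 13.72 and 13.56 and the AIMP3-depleted intensities 13.77 and 13.71, the higher channel on each array.

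The plaque proteins had mean ratios of opposite sign. *Tjp1*, the scaffold that binds claudin tails and occludin and links them to actin, had control intensities of 12.79 and 12.62 on the log2 scale and AIMP3-depleted intensities of 13.19 and 12.96. The AIMP3-depleted value was above the control value on each array. Its log2 ratios were 0.40 and 0.34, with a mean of 0.37 ± 0.038 (SD, n = 2; 95% confidence interval 0.26 to 0.48; adjusted p = 9.01e-04 by limma). *Cgn*, which binds ZO-1 and ties the plaque to actomyosin and microtubules, gave nearly equal log2 ratios of -0.10 and -0.11, with a mean of -0.11 ± 0.0038 (SD, n = 2; adjusted p = 0.0798 by limma). Within each array the control intensity (14.32 and 14.31) lay just above the AIMP3-depleted intensity (14.22 and 14.20).

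**Figure D2:**
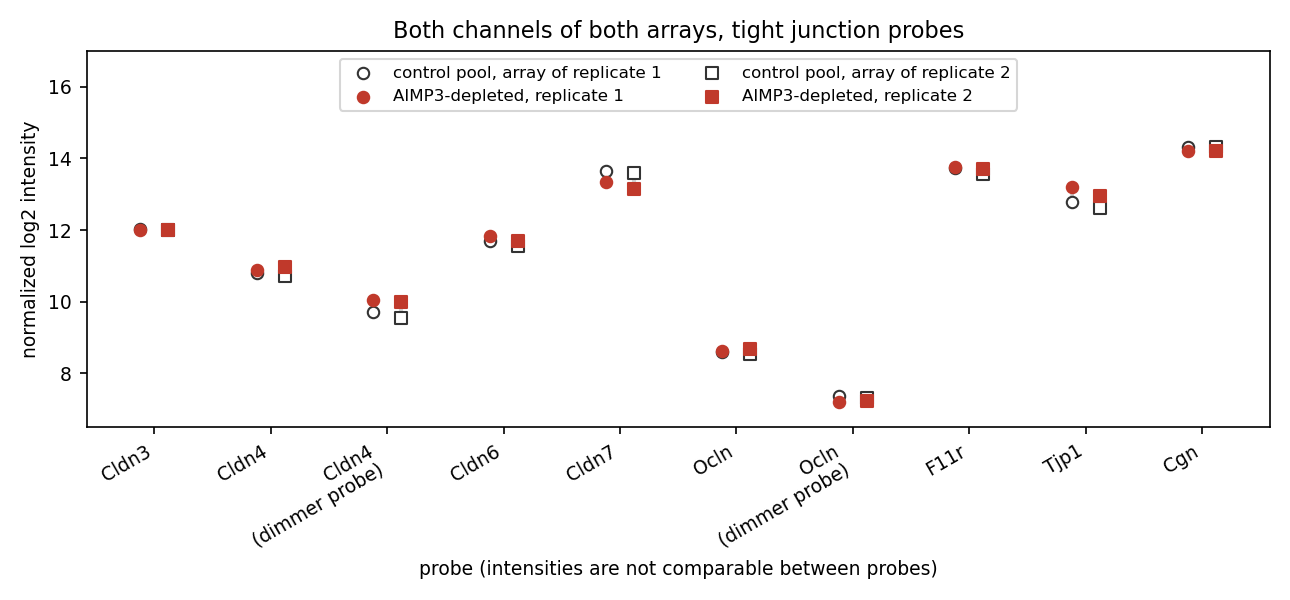
Normalized log2 intensity of the 10 tight junction probes. Open symbols are the control pool and filled symbols are AIMP3-depleted cells, circles for the array of replicate 1 and squares for that of replicate 2. On both arrays the filled symbol lies below the open symbol for *Cldn7* and above it for *Tjp1*. Intensities of different probes cannot be compared with each other.

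The spread of these measurements was small beside the 1.5-fold threshold. The SD between replicates of the 8 genes ran from 0.0038 to 0.11 on the log2 scale, and the median SD of all tested genes was 0.048. The control pool is the same RNA on both arrays, and its processed, centred log2 signal differed between the arrays by at most 0.087 at a tight junction probe. The same difference between the AIMP3-depleted replicates was at most 0.19. Every tight junction probe was printed as 1 spot, so an error within an array could not be computed. The median log2 ratio of the 8 genes was 0.09 (0.04 in replicate 1 and 0.14 in replicate 2), against 0.02 for all tested genes, and 5 of the 8 means were positive. The median of the 8 was 0.01 with the processed signals, 0.05 with the authors' table, 0.04 with the mean of all probes and 0.29 with median centring, or 0.11 relative to all genes. Of all tested genes, 83.0% had a log2 ratio between that of *Cldn7* and that of *Tjp1*.

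For 3 of the 8 genes the sign depended on the background correction and dye scaling. Over 5 ways to correct the background and scale the dyes, *Tjp1* stayed positive with log2 ratios of 0.32 to 0.61, and so did *Cldn4* (0.12 to 0.37), *Cldn6* (0.09 to 0.36) and *F11r* (0.10 to 0.38). *Cldn7* stayed negative, between -0.38 and -0.11. *Cldn3* and *Cgn* turned positive with median centring, and *Ocln* turned negative with Feature Extraction's processed signals and with the authors' table, which derives from them. Centring each array on its median in place of loess moved the median of all tested genes to 0.18. Under it *Tjp1* passed 1.5-fold with a log2 ratio of 0.61, of which 0.43 was beyond the shift of all genes. In *Cldn7* it gave -0.11, or -0.29 relative to the median of all genes.

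**Figure D3:**
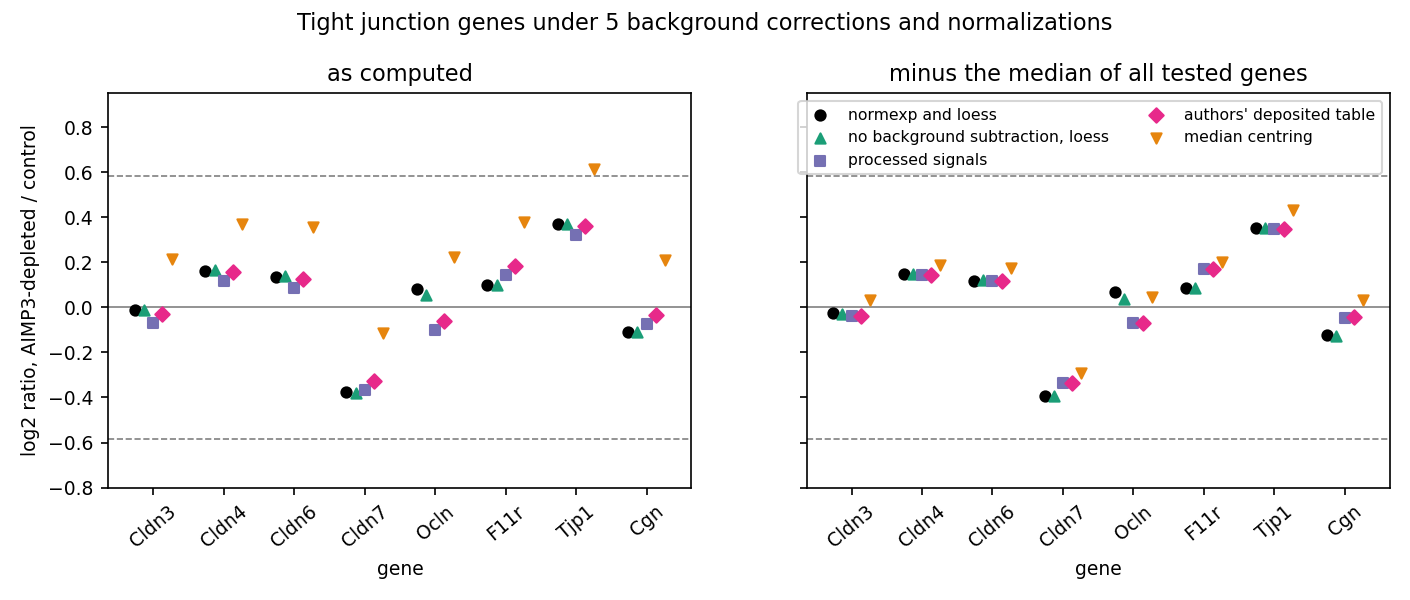
Mean log2 ratio of the 8 tight junction genes under 5 background corrections and dye normalizations, as computed (left) and after subtraction of the median of all tested genes (right). Each symbol is 1 setting and dashed lines mark 1.5-fold. After subtraction *Tjp1* lies between 0.35 and 0.43 and *Cldn7* between -0.39 and -0.29 in all 5.

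The promoters of the 8 genes were read for motifs of known regulators of epithelial genes. RefSeq start sites on GRCm38.p6 gave 10 windows of 250 bases upstream of a start, 1 or 2 for each of the 8 genes. The E-box CAGGTG, searched on both strands, is the motif that the repressors of the Snail and Zeb families bind. It was found in 5 of the 10 windows and in 5 of the 8 genes (*Cldn4*, *Cldn6*, *Cldn7*, *F11r* and *Ocln*), against 17.2% of the 32851 windows in the table. In *Cldn7* and *Ocln* the matches lay in the window of 1 of their 2 start sites. The windows of *Cldn4* (chr5:134946935-134947184, minus strand), *Cldn6* (chr17:23679115-23679364, plus strand) and *F11r* (chr1:171437311-171437560, plus strand) are shown because each holds a single E-box upstream of the only start site listed. The E-box is in capitals, and its first base lies at position -14, -93 and -122 from the start, respectively:
Cldn4: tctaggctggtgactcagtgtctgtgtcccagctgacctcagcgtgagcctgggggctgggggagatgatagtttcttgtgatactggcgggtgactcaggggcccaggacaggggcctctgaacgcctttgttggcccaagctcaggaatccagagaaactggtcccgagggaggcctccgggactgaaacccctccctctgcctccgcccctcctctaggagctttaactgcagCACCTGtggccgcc
Cldn6: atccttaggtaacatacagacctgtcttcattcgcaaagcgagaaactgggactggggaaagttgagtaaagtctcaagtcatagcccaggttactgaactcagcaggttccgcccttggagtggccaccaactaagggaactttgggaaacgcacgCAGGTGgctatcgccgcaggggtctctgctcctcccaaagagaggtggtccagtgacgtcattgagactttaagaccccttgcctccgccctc
F11r: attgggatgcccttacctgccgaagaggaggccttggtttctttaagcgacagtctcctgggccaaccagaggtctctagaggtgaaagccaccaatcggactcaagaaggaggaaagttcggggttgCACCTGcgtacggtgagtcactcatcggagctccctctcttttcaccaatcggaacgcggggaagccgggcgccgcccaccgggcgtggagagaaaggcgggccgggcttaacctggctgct

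CACCTG in *Cldn4* and *F11r* is CAGGTG read on the other strand. The GC box GGGCGG was the motif most often found, in 9 of the 10 windows, against 32.7% of all windows. The AP-1 motif TGANTCA lay in the windows of *Cldn4* and *F11r* (6.75% of all windows). Single windows held the grainyhead motif AACNNGTT (*Cgn*, 3.64% of all windows), the TEAD motif GGAATG (*Cldn7*, 12.6%) and the AP-2 motif GCCNNNGGC (*Ocln*, 13.7%). No E-box match overlapped a match of another motif (0 overlaps). These are matches of letters and not measured binding sites.

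The repressors that bind the E-box were raised as RNA. Of 5 repressors of epithelial genes, 4 rose, namely *Zeb2* (log2 ratio 1.26 ± 0.061, SD, n = 2), *Snai2* (0.91 ± 0.16), *Snai1* (0.75 ± 0.065) and *Zeb1* (0.71 ± 0.058), and 0 fell, where 5.53% of all tested genes rose. Fibroblasts also express these repressors, and 11 of 14 tested fibroblast markers rose in the same RNA. Their part in these rises was not tested. *Twist1*, another repressor of this group, was at 0.43 and did not pass 1.5-fold. The methods' t-test called 3 of the 5 raised. All 5 were higher at an adjusted p under 0.05 by limma, as were 30.6% of all tested genes, and their median log2 ratio was 0.75, against 0.02 for all tested genes. *Cdh1*, which encodes E-cadherin and is a known target of these repressors, had log2 ratios of -0.10 and -0.11 (adjusted p = 0.0869 by limma). It was thus close to *Cgn* in size and sign, and like the 8 tight junction genes it was not among the changed genes.

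Transcription factors of epithelial cells gave 2 rises and 0 falls among 12 tested of 16 listed (16.7% raised, against 5.53% of all tested genes), with a median log2 ratio of 0.21. *Foxa2*, a factor of endoderm, rose by 1.38 ± 0.17 (SD, n = 2; adjusted p = 4.61e-05 by limma), and *Cdx2*, a factor of the trophectoderm, by 0.66 ± 0.17 (adjusted p = 4.17e-04). None of the 3 grainyhead factors passed 1.5-fold. *Grhl2*, known to activate claudin genes, was at -0.08, *Grhl1* at -0.35 and *Grhl3* at 0.13, with adjusted p-values by limma of 0.182, 0.00242 and 0.0433. The methods' t-test called 0 of the 12, and without replicate 2 only *Foxa2* was over 1.5-fold, since *Cdx2* was at 0.54 in replicate 1. *Foxa2* and *Cdx2* are also markers of endoderm and trophectoderm in the lists below.

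Of 60 other listed tight junction genes 44 were tested. Among these 3 rose and 1 fell (9.09% changed, against 6.32% of all tested genes), 40 did not pass the threshold, and the median log2 ratio was 0.05. After adjustment at any fold 17 were higher (38.6%, against 30.6% of all tested genes) and 12 were lower (27.3%, against 23.7%). The 60 were divided into other claudins, other membrane proteins, and other plaque and polarity proteins.

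Among 19 other claudins 6 were tested. *Cldn5*, known from the tight junctions of blood vessels, was the 1 that fell (16.7% of the 6, against 0.791% of all tested genes). Its log2 ratios were -0.79 and -0.84, with a mean of -0.81 ± 0.036 (SD, n = 2; adjusted p = 6.26e-05 by limma) and a level of 0.570 times that of the control. The 5 others had ratios between -0.18 and 0.23. The 13 claudins that were not tested were too dim, including *Cldn1*, *Cldn2* and *Cldn8*.

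Among 13 tested membrane proteins of the junction 0 passed the threshold, where 6.32% of all tested genes did, and the median log2 ratio was -0.07. After adjustment at any fold 4 were higher (30.8%, against 30.6% of all tested genes) and 5 were lower (38.5%, against 23.7%). The 2 lowest were *Crb3* (-0.33), a small apical polarity protein, and *Ildr1* (-0.33), a protein of the contacts between 3 cells. The relatives of the chosen members were named for their kinship, with their values known. *Marveld2*, which encodes tricellulin, and *Marveld3*, both related to occludin, were at 0.19 and -0.16, although a dimmer probe of *Marveld3* gave 0.09. *Jam2* and *Jam3*, relatives of *F11r*, were at -0.15 and -0.09, although a dimmer probe of *Jam2* gave 0.27. *Epcam*, the partner of claudin-7, had log2 ratios of -0.30 and -0.26, with a mean of -0.28 (adjusted p = 0.00247 by limma), under 1.5-fold and of the same sign as *Cldn7*.

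The plaque and polarity proteins held all 3 rises (12% of 25 tested, against 5.53% of all tested genes). These were the angiomotin family members *Amot* (0.94 ± 0.041, SD, n = 2; adjusted p = 4.73e-05 by limma), *Amotl1* (0.64 ± 0.061) and *Amotl2* (0.60 ± 0.048), which bind polarity proteins at the junction and hold YAP outside the nucleus. *Amotl2* lay near the threshold and passed it in 4 of the 5 scalings, with a lowest log2 ratio of 0.57. Of the 25 tested genes of this list the other 22 did not pass, and the median was 0.13. *Tjp3*, a relative of *Tjp1*, was at -0.40 (adjusted p = 6.22e-04 by limma). *Cgnl1*, the relative of *Cgn*, was at -0.31 (adjusted p = 0.00173 by limma). *Ybx3*, which encodes the ZO-1 partner ZONAB, was the lowest of the list at -0.41.

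Among 16 genes of adherens junctions and desmosomes 2 rose (12.5%, against 5.53% of all tested genes) and 0 fell, with a median of 0.20. Both rises were in desmosomal genes. *Pkp1*, of the same list, lay just under the threshold at 0.58, with a control signal not well above background on either array. The count of rises was 3 with no background subtraction, with the processed signals and with the authors' table. *Dsp*, which encodes the desmosomal plaque protein desmoplakin, had log2 ratios of 1.20 and 1.16, with a mean of 1.18 ± 0.030 (SD, n = 2; adjusted p = 3.28e-05 by limma), a 2.27-fold rise. Its other probe gave a smaller log2 ratio of 0.51. *Dsc2*, a desmosomal cadherin, rose by 0.90 ± 0.092 (SD, n = 2; adjusted p = 6.62e-05 by limma). The difference between these lists was not tested.

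**Figure D4:**
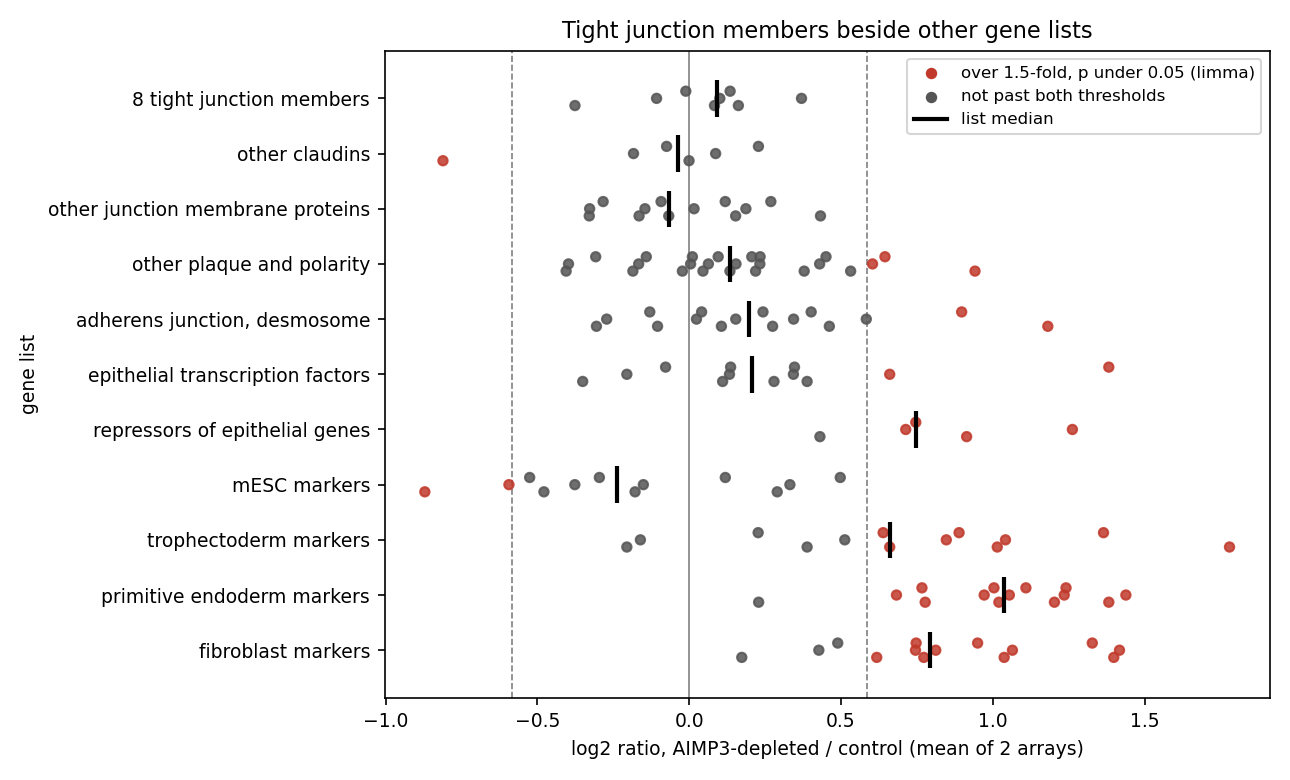
Mean log2 ratio over 2 arrays of each tested gene (points) by list, with list medians as black bars. Red points are over 1.5-fold with p under 0.05 by limma, and dashed lines mark 1.5-fold. The 8 tight junction genes hold no red point and a median of 0.09, whereas the lists of endoderm, fibroblast and trophectoderm markers hold medians of 1.04, 0.79 and 0.66.

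Markers of other cell types moved in the same RNA, and their part in the values of the tight junction genes was not tested. Against 5.53% of all tested genes, 8 of 13 tested trophectoderm markers rose (61.5%, *Krt18*, *Krt8*, *Plac1*, *Krt7*, *Hand1*, *Gata3*, *Cdx2* and *Tead4*) and 0 fell, from *Tfap2c* at -0.21 to *Krt18* at 1.78. Their summed signal was 72480 and 73835 in the control channel of the arrays and 195766 and 208583 in the AIMP3-depleted channel. *Elf5*, a defining factor of trophoblast, was too dim to be tested, and *Eomes* was at -0.16. Of 14 tested primitive endoderm markers 13 rose (92.9%), led by *Sox17* (1.44), *Foxa2*, *Sparc*, *Col4a1* and *Gata6*, and *Amn* was the lowest at 0.23. Their summed signal was 187544 and 196969 in the control and 400135 and 406779 in AIMP3-depleted cells, while *Ttr*, *Afp* and *Hnf4a* were too dim to be tested.

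Of 14 tested fibroblast markers 11 rose (78.6%, against 5.53% of all tested genes), led by *Vim* (1.42), *S100a4*, *Acta2*, *Col1a1* and *Col1a2*. The lowest was *Thy1* (0.17). Their summed signal went from 117357 and 117174 to 197028 and 193752, and *Lum* was too dim to be tested. The labels describe culture on embryonic fibroblast feeders, whereas the methods describe conditioned medium for drug treatment, and a share of feeder RNA cannot be told apart from expression by the mESCs. The 12 mESC markers were all tested, and 2 fell (16.7%, against 0.791% of all tested genes). These were *Fgf4* (-0.87, past the threshold in 4 of 5 scalings) and *Tdgf1* (-0.59, in 2 of 5), while *Dppa5a* was the highest at 0.50. At any fold 8 of the 12 were lower after adjustment by limma (66.7%, against 23.7% of all tested genes) and 3 were higher (25%, against 30.6%), and the median log2 ratio was -0.24. The core pluripotency factors *Sox2* (-0.53), *Pou5f1* (-0.48) and *Nanog* (-0.38, with another probe at 0.06) were among the 8 and did not pass 1.5-fold. The replicates of *Pou5f1* differed, at -0.64, which is past 1.5-fold, and -0.32. The summed signal of the 12, which the brightest probes carry, was 343084 and 345303 in the control and 347647 and 347924 in AIMP3-depleted cells, and that of the 8 tight junction genes was 63600 and 60165 in the control and 62696 and 59163 in AIMP3-depleted cells. In RNA of whole cultures, fewer cells of a type and less RNA per cell cannot be told apart.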

How the data were processed

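Total RNA of 2 AIMP3-depleted mESC replicates (Cy5) was compared with 1 pool of control RNA (Cy3) on 2 Agilent mouse 8 × 60K arrays of 1 slide. The intensity of each spot and its local background, in both channels, was deposited as given by Feature Extraction (11.5.1.1 per the file headers, another version than the methods name). The authors deposited with it the software's processed intensity, a log10 ratio of Cy5 over Cy3 and flags for dim, saturated and outlier spots. A further table deposited by the authors gives log2 ratios. With a constant of 0.040 or 0.039 added, the log2 ratio of the processed signals lay within 0.01 of this table for 99.7% of 55681 probes, so the table runs as AIMP3-depleted over control. The column medians were 0.09 and 0.11. Although the methods word the ratio as control over test, dyes and direction were taken from the labels. The number of columns of per-sample values not used was 0.

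Median signals (mean signals, which the design had assumed, are not in these files) were corrected by normexp (offset 50) and loess within each array in limma 3.58.1 (R 4.3.3, jsonlite 2.0.0 and data.table, version 1.17.8). Control spots and outlier flags (215 and 227 spots) were dropped, and repeated spots of the same probe were averaged. A probe entered the test if, on each array, its signal was well above background in Cy3 or Cy5, as held for 33012 of 55681 probes. The brightest tested probe stood for a gene. Ratios were tested against 0 with lmFit and eBayes (1 residual and 5.29 prior degrees of freedom) and adjusted by the Benjamini-Hochberg method over all tested genes. A gene was changed when over 1.5-fold with an unadjusted p under 0.05, the threshold of the methods, and all 1518 genes over 1.5-fold passed that p. Precision was limited by the number of arrays.

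Accessions of 31014 spots were matched to names in a table of RefSeq genes, and promoters came from RefSeq on GRCm38.p6, read with Python 3.11.15 and pandas 2.3.3. Array coordinates of another build were not used. The members, gene lists and settings were chosen with earlier results of these data known. Named genes were the 8 members, *Eef1e1*, up to the 10 list genes with the largest difference past the threshold, and the lowest and highest marker of a list. For marker lists with over 8 rises only the first 5 were printed, and other names were added with their values known. Some list genes are not reported here by name. Steps were tested on simulated data of 24022 genes with 200 changed, of which 200 were recovered with 0 false calls. The planted changes were all well past 1.5-fold, and no spread of control cultures was simulated. The simulation therefore does not show how differences near or under 1.5-fold, such as those of the 8 members, are recovered.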

Additional observations from a re-analysis of the deposited data

How the results depend on the processing

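No paired analysis was possible because the control was 1 pool with no replicate numbers to share. Ratios were already taken within each array. Background correction, dye scaling, filter, probe choice, value table, test, threshold, unit tested and replicates were each varied in turn.

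Of the tight junction genes, *Ocln* reversed with the processed signals (-0.10), the authors' table (-0.059, derived from those signals) and the mean of its probes (-0.023). Median centring, which moved the median of all tested genes to 0.18, reversed *Cldn3* (0.21) and *Cgn* (0.21), and relative to that median they were at 0.034 and 0.032. Leaving out each replicate gave *Cldn3* values of -0.027 to 0.0052, reversed without replicate 1. In no alternative with a fold threshold did a member pass it, apart from *Tjp1* under median centring (1 raised). With an adjusted p and no fold threshold 3 members were raised and 1 lowered.

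Median centring gave 7 raised among other tight junction genes and 5 among adherens junction and desmosome genes. A 2-fold threshold left 0 raised and 0 lowered other tight junction genes, 1 raised adherens junction and desmosome gene (*Dsp*), 1 epithelial transcription factor (*Foxa2*) and 1 repressor (*Zeb2*). With an adjusted p and no fold threshold, 17 other tight junction genes were raised and 12 lowered, as were 9 and 3 genes of adherens junctions and desmosomes and 8 and 2 epithelial transcription factors. The methods' t-test gave 0 raised epithelial transcription factors, and leaving out each replicate gave 1 to 2, the lower without replicate 2. The log2 ratio of *Eef1e1* kept its direction and its call in every alternative that tested it.

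Over all genes 1328 were raised and 190 lowered, a raised share of 87.5%. It was 71.5% (1944 and 776) with the processed signals, 77.5% (2130 and 617) with the authors' table, 97.8% (2827 and 64) with median centring, 94.3% (281 and 17) over 2-fold and 56.4% (7358 and 5686) with an adjusted p alone. The methods' t-test gave 865 and 128. The causes of these differences were not tested. Signals over background had a median of 2.68 to 3.31, and 13 of 19 other claudins were too dim to be tested.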
